A study of Mus musculus with 6 samples.

Results

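Hypoxia-inducible factors (HIFs), the enzymes that mark them for destruction and the related collagen prolyl hydroxylases were examined in RTF1-deficient and control mouse Th17 cells. The set held 10 genes of the 31017 in the count table, matched by symbol: Hif1a, Epas1, Arnt, Vhl, Hif1an, Egln1, Egln2, Egln3, P4ha1 and P4ha2. All of them had counts in every library, from 29 to 51723. These genes were selected on their function and with the difference between RTF1-deficient and control libraries already known from the same data, so that difference is described here for the 10 genes and no p-value is given for any of them.

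Th17 cells are helper T cells that secrete interleukin 17. RTF1 works with the PAF1 complex, which travels with RNA polymerase II, and supports the attachment of ubiquitin to histone H2B. RNA was sequenced from 3 control libraries, whose genotype is labelled WT, and 3 RTF1-deficient libraries, labelled KO, all from Th17 cells differentiated in vitro. The allele, any Cre driver, the mouse strain and age, the cytokines, the time in culture and the oxygen tension are not given in the sources used here. Nor do the labels say whether replicates came from separate mice or cultures. Every p-value below thus sets the difference between groups against the spread between these libraries, part of which may be technical.

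A HIF is a pair of proteins, an alpha subunit (HIF-1 alpha from Hif1a, HIF-2 alpha from Epas1) and the beta subunit ARNT. Where oxygen is plentiful, the prolyl hydroxylases encoded by Egln1, Egln2 and Egln3 (PHD2, PHD1 and PHD3) hydroxylate the alpha subunit, the VHL ubiquitin ligase recognises the mark, and the protein is degraded. HIF1AN, also called FIH, hydroxylates an asparagine instead and blocks binding of coactivators. In low oxygen these enzymes slow down, the alpha subunit accumulates and target genes are transcribed, among them Egln3, Egln1, P4ha1 and P4ha2 themselves and the enzymes of glycolysis. In activated T cells Hif1a is also induced without hypoxia, and it is known to favour Th17 differentiation. The products of P4ha1 and P4ha2 are catalytic subunits of collagen prolyl 4-hydroxylase, which uses the same cofactors, iron and 2-oxoglutarate, as the HIF hydroxylases.

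Total counts ran from 16489813 to 51271226 per library, and the deposited values are read counts with no stated molecular identifiers. Rtf1 held 88.3 to 94.0 CPM (counts scaled to a common library total) in control and 26.2 to 45.3 in KO, so the libraries carried the label's direction and KO kept 37.2% of the control level. Replicate 3 of each group held reads of 4 Y-linked genes, 11376 for control and 5147 for KO, against 1 to 3 in each remaining library. Replicate 3 of each group therefore had another source than replicates 1 and 2. All 12 markers of T and Th17 cells were detected, with a summed level of 3730 to 4201 CPM in control and 1953 to 2542 in KO. In these 12, edgeR called 2 higher and 6 lower in KO.

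The promoters of the members are shown first, since 4 of the genes with lower counts in KO are known HIF targets and HIFs bind a short core sequence. RefSeq promoter windows (assembly GRCm38.p6, 250 bases before to 50 after a start site) were matched by symbol for 9 of the 10 genes, with 2 windows for Egln2. The core of the hypoxia response element was searched as ACGTG and GCGTG on either strand. A match overlaps the E-box CACGTG where that palindrome occurs. Below, each stretch is read 5′ to 3′ on the gene's own strand and has the matches in capitals. It ends at the RefSeq start, or earlier where a GENCODE exon of the gene begins. The P4ha2 stretch lies inside the GENCODE span of its gene, which begins at 54100095. The Hif1a window likewise lies inside its gene, which begins at 73901375. Sequence before these 2 GENCODE starts was not searched. The stretch of Egln1 lies at chr8:124949325-124949504 (minus strand), Egln3 at chr12:54203875-54204124 (minus), P4ha1 at chr10:59323046-59323295 (plus), P4ha2 at chr11:54100674-54100923 (plus), and the upstream window of Egln2, whose counts were not lower in KO, at chr7:27166803-27167052 (minus).
Egln1: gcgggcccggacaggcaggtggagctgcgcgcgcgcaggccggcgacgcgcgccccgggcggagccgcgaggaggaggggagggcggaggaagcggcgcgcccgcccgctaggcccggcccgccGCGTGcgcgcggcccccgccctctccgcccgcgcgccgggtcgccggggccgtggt
Egln3: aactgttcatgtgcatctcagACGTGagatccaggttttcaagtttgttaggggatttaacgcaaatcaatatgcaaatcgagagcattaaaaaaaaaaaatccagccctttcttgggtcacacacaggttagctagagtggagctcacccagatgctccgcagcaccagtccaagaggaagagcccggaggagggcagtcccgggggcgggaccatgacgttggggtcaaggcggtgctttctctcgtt
P4ha1: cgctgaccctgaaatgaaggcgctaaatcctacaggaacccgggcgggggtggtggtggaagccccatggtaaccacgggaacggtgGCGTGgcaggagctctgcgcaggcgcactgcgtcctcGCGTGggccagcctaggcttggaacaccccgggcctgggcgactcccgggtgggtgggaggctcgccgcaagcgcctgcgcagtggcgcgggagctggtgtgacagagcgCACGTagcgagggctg
P4ha2: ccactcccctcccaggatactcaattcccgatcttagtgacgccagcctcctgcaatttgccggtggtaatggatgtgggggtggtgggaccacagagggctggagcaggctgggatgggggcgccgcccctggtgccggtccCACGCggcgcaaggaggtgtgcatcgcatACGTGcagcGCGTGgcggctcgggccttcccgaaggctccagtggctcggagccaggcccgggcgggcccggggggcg
Egln2: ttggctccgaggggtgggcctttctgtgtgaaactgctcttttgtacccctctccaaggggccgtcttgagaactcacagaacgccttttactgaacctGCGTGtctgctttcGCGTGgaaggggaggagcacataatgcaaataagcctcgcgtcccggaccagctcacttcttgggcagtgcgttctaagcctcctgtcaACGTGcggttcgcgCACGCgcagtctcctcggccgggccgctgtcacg

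In the full windows P4ha2 had 4 matches, of which 3 lay 107 to 69 bases before the start. P4ha1 had 3, Hif1a 3 (2 of them the strands of 1 CACGTG palindrome), Egln1 2, Arnt 1 and Egln3 1, while Hif1an and Vhl had none. Egln2 held 6 in its upstream window (again 2 of them the strands of 1 CACGTG palindrome) and 1 in the other. A match was thus present in 7 of the 9 genes and in 8 of their 10 windows, against 43.8% of all 32851 windows (Wilson 95% interval 43.2% to 44.3%). The motif contains a CpG, and the windows of the members were rich in it: 16 to 60 CpG in the richest window of each gene, against a median of 7 over all windows. Of the 10841 windows with at least 16 CpG, 71.8% held a match, so the members' share was near that of promoters of similar composition. The 5 genes with lower counts in KO all had a match, and so did Egln2 and Arnt. A match describes letters in this window and shows no binding.

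Read counts of all 14268 genes that passed the filter on low counts were compared between KO and control with edgeR's quasi-likelihood test, and a gene is said to be called at a Benjamini-Hochberg adjusted p below 0.05. All 10 members passed this filter, and each was above its 0.325 CPM limit in all 6 libraries. The comparison called 46.1% of all tested genes, 23.2% higher and 22.9% lower in KO. Among the members it called 5 lower (P4ha2, Egln1, Hif1a, Egln3 and P4ha1) and 2 higher (Epas1 and Hif1an), and 3 were not called (Egln2, Arnt and Vhl). The groups were free of overlap in 9 of the 10 members and in 57.9% of all tested genes. Since this contrast was known when the genes were chosen, nothing is read from these counts. In RNA from whole cultures, fewer cells that express a gene and less RNA per cell cannot be told apart.

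**Figure D1:**
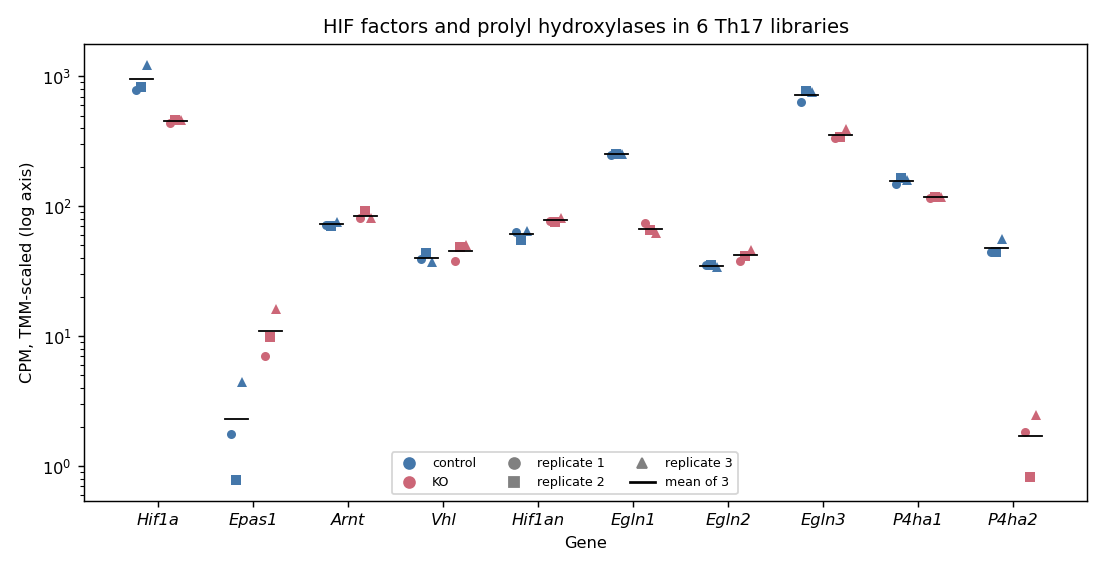
TMM-scaled CPM (log axis) of the 10 genes in each of the 6 libraries, control in blue and KO in red, with the replicate number as the symbol and the mean of 3 as a bar. P4ha2 and Egln1 show the widest gaps below control, Epas1 lies above control at low levels, and the Vhl groups overlap.

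Hif1a was the alpha subunit gene with the highest RNA level in every library (chromosome 12, 73901375 to 73947530, plus strand, GRCm38). It held 791, 830 and 1229 CPM in control replicates 1 to 3, and 437, 465 and 465 in KO. The KO libraries lay close together, with a coefficient of variation of 3.57%, whereas the control libraries spread by 25.5% with replicate 3 the highest. No KO library reached any control library. Means were 950 ± 242 CPM for control and 455 ± 16.2 for KO (n = 3, SD; log2 fold change -1.06, SE 0.179), which is 47.9% of the control level. With replicates 1 and 2 alone the value was -0.85, and without control replicate 1 it was -1.24. Of the exonic bases of Hif1a, 8.11% overlap the genes Gm15283 (opposite strand) and Gm49321 (same strand). Where Gm49321 and Hif1a overlap, their reads cannot be told apart by strand. The strand setting of the counting is not given in the sources used here, so reads from Gm15283 cannot be told apart either.

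Epas1 encodes HIF-2 alpha, the paralog best known from endothelial and other non-lymphoid cells (chromosome 17, 86753700 to 86833410, plus strand). Its level was low: 1.76, 0.784 and 4.42 CPM in control replicates 1 to 3, from 29, 38 and 186 reads, and 7.02, 9.85 and 16.2 CPM in KO, from 185, 369 and 319 reads. The KO libraries all lay above control, but both groups varied widely, by 81.0% in control and 42.7% in KO. The fitted log2 fold change was 2.23 (SE 0.576). It moved to 3.17 without control replicate 3 and to 1.76 without control replicate 2. Markers of endothelial cells summed to 0.0826 to 0.475 CPM in control and 0.911 to 1.47 in KO, with 1 of 6 called higher (Tek, 0.0434 and 0.872 CPM on average). The other 5 were too low to test: Vwf averaged 0.0282 and 0.265 CPM with KO above control in every library, Kdr 0.167 and 0.0339, Cldn5 0.0203 and 0.0253, Cdh5 0.00792 and 0, and Emcn had no count in any library. Markers of myeloid cells summed to 2.09 to 5.04 CPM in control and 16.6 to 27.4 in KO. In that list 2 of 7 were called higher, Cd68 (3.19 and 20.0 CPM) and Csf1r (0.361 and 1.18 CPM). Csf1r rested on 7, 10 and 19 reads in control and 35, 22 and 32 in KO. Of its exonic bases, 15.1% overlap Hmgxb3 on the opposite strand. Lyz2, too low to test, averaged 0.0454 and 0.816 CPM with KO above control in every library, and 15.4% of its 50-base stretches also occur in transcripts of other genes. S100a8 and S100a9 had no count in control and averaged 0.0267 and 0.0900 CPM in KO. Adgre1 averaged 0.0474 and 0.0445 CPM and Itgam 0.0306 and 0.0216, although 68.7% of the exonic bases of Itgam overlap Gm49368 on the same strand, which makes its count uncertain. The part of such cells in the Epas1 difference was not tested.

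To compare levels between genes, CPM were divided by the length of each gene's merged exons, which assumes reads spread along the whole transcript. On this scale Hif1a made up 99.6% to 99.9% of the summed level of Hif1a and Epas1 in control and 96.5% to 98.3% in KO. The Epas1 share was 0.237% ± 0.139 in control and 2.47% ± 0.973 in KO (n = 3, SD). The summed level of both genes was 161.6 ± 41.4 CPM per kilobase in control and 79.2 ± 3.42 in KO, 49.03% of control. The higher Epas1 level in KO was thus small beside the difference in Hif1a. Hif3a, the remaining alpha subunit gene and not among the 10, stood at 1.87 ± 1.07 CPM per kilobase in control and 0.400 ± 0.0332 in KO (n = 3, SD), above Epas1 in every control library and below it in every KO library. With Hif3a in the sum, the Hif1a share was 98.2% to 99.2% in control and 95.99% to 97.8% in KO.

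Arnt, the beta subunit shared by HIF-1 and HIF-2 (chromosome 3, 95434388 to 95497240, plus strand), was slightly higher in KO. It stood at 72.2, 70.0 and 76.5 CPM in the controls and at 81.7, 91.7 and 81.7 in KO. The groups did not overlap, yet the log2 fold change was only 0.22 (SE 0.106). Over the 15 alternative settings the value ran from 0.15 to 0.31, the highest with library size as the sole scaling. Per kilobase, Hif1a exceeded Arnt by 17.6 ± 3.71 times in control and by 7.29 ± 0.416 times in KO (n = 3, SD).

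Egln1 encodes PHD2, the main HIF prolyl hydroxylase in most cells at normal oxygen (chromosome 8, 124908587 to 124949324, minus strand). Its levels were 247.6, 255 and 252 CPM for control against 74.2, 65.6 and 62.5 for KO. Controls agreed within a coefficient of variation of 1.48%, and every KO library stood far below them, with a KO mean of 26.8% of control. The means were 252 ± 3.73 and 67.4 ± 6.09 CPM (n = 3, SD; log2 fold change -1.90, SE 0.113). By replicate number the log2 ratios were -1.74, -1.96 and -2.01, and over all 15 alternative settings the fitted value stayed between -1.98 and -1.81. The Egln1 value thus varied less across settings than that of any other member with at least a 2-fold difference.

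Egln3 encodes PHD3, a hydroxylase strongly induced by HIF (chromosome 12, 54178981 to 54203860, minus strand). It held 635, 771 and 758 CPM in control replicates 1 to 3 and 333, 339 and 393 in KO. All KO libraries were below all controls, and the means were 721 ± 75.0 and 355 ± 33.1 CPM (n = 3, SD; log2 fold change -1.02, SE 0.134). KO kept 49.3% of the control level.

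Egln2 encodes PHD1, which unlike the others is not known for induction by HIF (chromosome 7, 27158658 to 27166802, minus strand). Its levels were 35.1, 35.3 and 34.1 CPM in control replicates 1 to 3 and 37.8, 41.9 and 46.3 in KO. The KO libraries lay just above control, at 34.8 ± 0.661 against 42.0 ± 4.23 CPM (n = 3, SD; log2 fold change 0.27, SE 0.122), with values from 0.18 to 0.36 over the 15 alternative settings. The upstream window of Egln2, of which the part before the start is printed above with 4 matches, had more matches to the HIF core sequence than any other member.

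Per kilobase, the 3 HIF prolyl hydroxylase genes summed to 353 ± 29.1 in control and 167 ± 12.5 in KO (n = 3, SD), 47.3% of control. Egln3 gave most of this sum in every library, 74.6% to 77.6% in control and 78.6% to 81.3% in KO. The Egln1 share was 19.0% to 21.5% in control and 9.57% to 12.96% in KO, and the Egln2 share was 3.32% to 3.92% and 8.48% to 9.31%. For each gene the shares of the groups did not overlap. The ratio of Egln3 to Egln1 was 3.87 ± 0.351 in control and 7.18 ± 1.23 in KO.

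**Figure D2:**
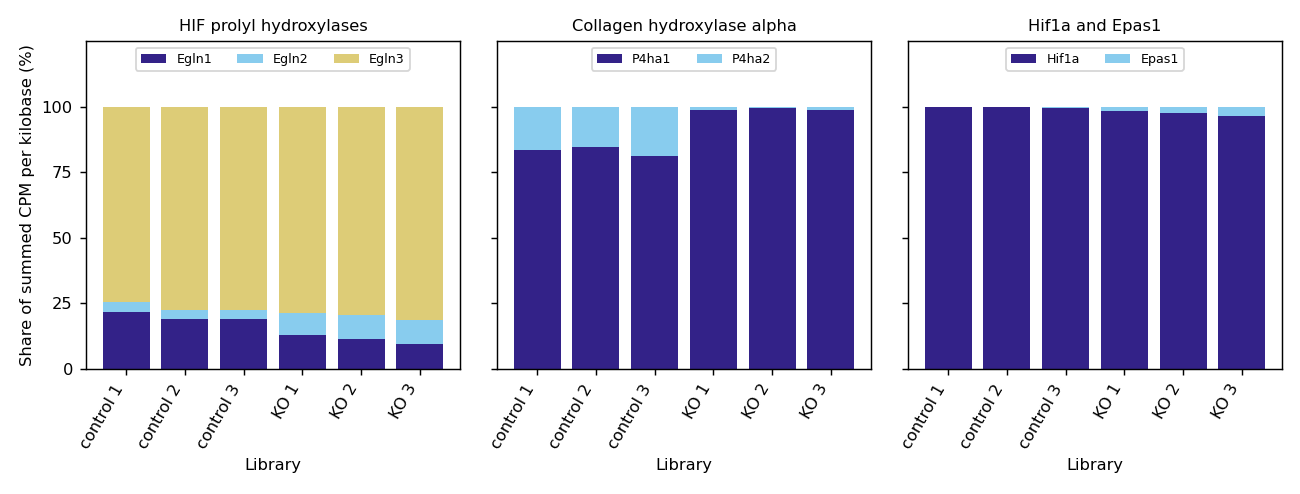
Share of each gene in the summed CPM per kilobase of its family, for the 6 libraries (the third panel holds Hif1a and Epas1 without Hif3a). Egln1 is a smaller part and Egln2 a larger part of the HIF prolyl hydroxylase sum in KO, P4ha2 averages 16.8% of the collagen hydroxylase sum in control and 0.951% in KO, and Epas1 is a thin band in every library.

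The remaining regulators of HIF were level or slightly higher in KO. Vhl, the substrate receptor of the ligase (chromosome 6, 113623959 to 113631633, plus strand), held 39.3, 43.6 and 37.2 CPM in control and 37.9, 48.6 and 50.4 in KO, with overlapping groups and a log2 fold change of 0.19 (SE 0.143). KO replicate 1 was below 2 of the 3 controls. Hif1an (chromosome 19, 44562850 to 44576274, plus strand) held 63.3, 55.1 and 64.9 CPM in control and 77.2, 76.3 and 81.1 in KO. Its KO libraries all lay above control, at a log2 fold change of 0.36 (SE 0.110). Over the 15 alternative settings the value ran from 0.27 to 0.44, and the Hif1an call was lost in 6 of them.

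The collagen prolyl hydroxylases differed widely in how far they stood below control. P4ha2 (chromosome 11, 54100095 to 54131665, plus strand) held 44.2, 44.9 and 55.6 CPM in control replicates 1 to 3, from 727, 2173 and 2341 reads. In KO it held 1.82, 0.828 and 2.49 CPM, from only 48, 31 and 49 reads. KO thus kept 3.55% of the control level, a 28.1-fold difference in mean CPM and a fitted log2 fold change of -4.88 (SE 0.339), at the 0.1 percentile of all tested genes. By replicate number the log2 ratios were -4.60, -5.76 and -4.48. Few reads in KO make the exact size less certain than the direction: the fit gave -5.23 when KO replicate 3 was omitted and -4.49 when KO replicate 2 was.

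P4ha1 (chromosome 10, 59323296 to 59373304, plus strand) held 147, 164.5 and 160 CPM in control replicates 1 to 3 and 115, 118 and 119 in KO. The groups were separate but close, at 157 ± 8.93 and 117 ± 1.79 CPM (n = 3, SD; log2 fold change -0.42, SE 0.101), and KO kept 74.6% of control. Per kilobase, P4ha1 was 4.99 ± 0.602 times as abundant as P4ha2 in control and 128 ± 76.9 times in KO. Because P4ha1 was the larger part, the sum of both genes in KO stood at 62.7% of control, with 46.0 ± 2.68 and 28.8 ± 0.479 CPM per kilobase. Markers of fibroblasts, cells that make collagen, summed to 1.58 to 5.04 CPM in control and 0.374 to 2.03 in KO, with 1 of 7 called lower (Pdgfrb, 0.539 and 0.104 CPM). On average Lum stood at 1.86 and 0.608 CPM, Col1a1 at 0.492 and 0.258, Pdgfra at 0.0918 and 0.0170, Col1a2 at 0 and 0.174 and Dcn at 0 and 0.0216, and Col3a1 had no count in any library. The part of such cells in the P4ha2 difference was not tested.

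**Figure D3:**
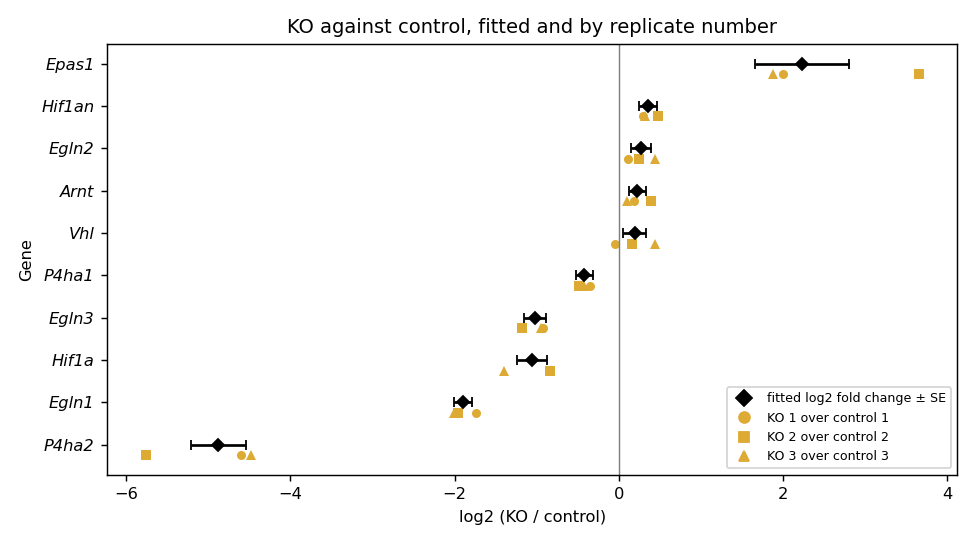
Fitted log2 fold change of KO against control with its SE (black) and the ratio of equal-numbered libraries (yellow) for the 10 genes. The values run from -4.88 for P4ha2 to 2.23 for Epas1, and the yellow points of each gene lie on a single side of 0 except for Vhl.

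Ordered by CPM per kilobase, control cells held most of Egln3 (271 ± 28.2), then Hif1a (161 ± 41.1), Egln1 (70.0 ± 1.04) and P4ha1 (38.2 ± 2.17; n = 3, SD). Vhl (13.3) and Egln2 (12.4) overlapped between libraries, as did Hif1an (9.25), Arnt (9.10) and P4ha2 (7.73), and Epas1 (0.415) was lowest. In KO the order began with Egln3 (133.5 ± 12.4), Hif1a (77.2 ± 2.75) and P4ha1 (28.5 ± 0.435), and Egln1 (18.8 ± 1.69) stood below P4ha1. Vhl (15.2) and Egln2 (14.99) again overlapped, Hif1an (11.8) and Arnt (10.6) followed, and P4ha2 (0.275) took the last place below Epas1 (1.97). The genes whose log2 CPM followed Hif1a most closely over the 6 libraries, among 9797 others averaging 5 CPM or more, were Aplp1 (Pearson r = 0.998), Eci2 (0.998) and Arhgap15 (0.998). With 6 libraries in 2 groups, these points share the difference between groups and the high control replicate 3, so the values are descriptions only.

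Genes that work with the members were taken from 6 lists without members. The lists are described by their counts beside the background of 46.1% called and a median log2 fold change of 0.013 over all tested genes. Like the members, they were chosen with earlier results of these data known, so their counts and p-values are descriptions only. The HIF target list held 30 genes that HIFs are known to activate. Among them were genes for glycolysis, glucose and lactate transport, mitochondrial turnover and angiogenesis, beside genes with other functions. The list had 26 of 30 called lower and none higher. Its median was -1.51, with values from -3.76 to 0.36. The counts of this list depend on which genes were placed in it. Kdm3a (-0.068, not called) and Bhlhe40 (-0.96, called lower), also known to be induced by HIF, were placed in other lists. Vegfa, the angiogenic factor, fell from 58.2 ± 12.3 to 7.61 ± 1.85 CPM (n = 3, SD; log2 fold change -2.92, edgeR adjusted p = 0.000106). The mitophagy receptor gene Bnip3 fell from 160 ± 6.94 to 25.8 ± 5.93 CPM (-2.63, adjusted p = 5.8e-05), and the glucose transporter gene Slc2a1 from 286 ± 61.8 to 91.0 ± 7.70 CPM (-1.65, adjusted p = 0.000272). Of the glycolytic genes, Gapdh fell by 1.44 on the log2 scale (adjusted p = 0.000193), Ldha by 1.29 (0.000743) and Eno1 by 0.95 (0.000945). The 4 not called, named after their values were seen, were Pfkfb4 (0.36), Adm (0.21), Mxi1 (-0.31) and Hk2 (-0.38). Bnip3, Eno1 and Gapdh are uncertain, since 47.2%, 26% and 25.1% of their 50-base stretches also occur in transcripts of other genes.

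**Figure D4:**
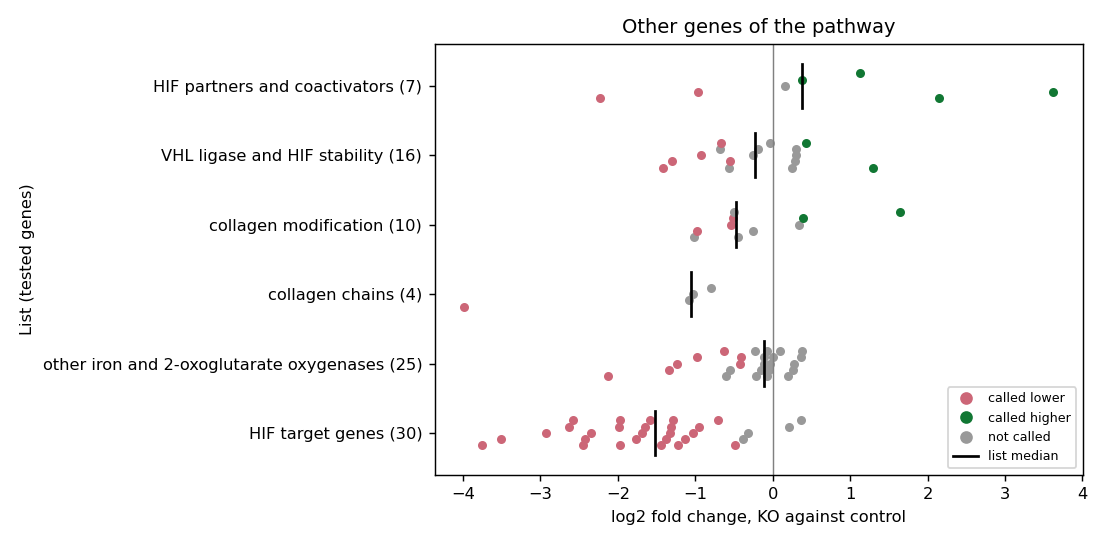
Log2 fold change of each tested gene of the 6 lists, coloured by its call, with the list median as a black line. Genes of the HIF target list are spread from -3.76 to 0.36 with 26 of 30 called lower. The other iron and 2-oxoglutarate oxygenases run from -2.13 to 0.385 with a median of -0.11 and 7 of 25 called lower.

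Partners and coactivators of HIF moved in both directions. Of 8 genes 7 were tested, with 4 called higher and 2 lower and a median of 0.39. Hif3a, an alpha subunit that can inhibit the others, fell from 12.5 ± 7.15 to 2.68 ± 0.223 CPM (n = 3, SD; log2 fold change -2.23, edgeR adjusted p = 0.00245). Bhlhe40, a HIF-induced repressor with roles in T cell cytokine production, fell from 737 ± 67.5 to 378 ± 42.2 CPM (-0.96, adjusted p = 0.000878). Cited2, which competes with HIF for the coactivator p300, rose from 33.9 ± 5.29 to 74.7 ± 18.5 CPM (1.13, adjusted p = 0.00215). The coactivator gene Ep300 (0.38, adjusted p = 0.0417) and Bhlhe41 (2.15, adjusted p = 0.0404) were called higher too, calls lost in 7 and 6 of 15 alternative settings, among them the omission of any single library except control replicate 3. Without control replicate 2 Bhlhe41 stood at 1.53, and with replicates 1 and 2 only at 4.13. Cited4, outside the naming rule and named after its value was seen, rose from 0.145 ± 0.0389 to 1.88 ± 0.873 CPM.

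In the list on the VHL ligase and HIF stability, 16 genes were tested, 2 called higher and 5 lower, with a median of -0.23. Cul2, the scaffold of the VHL ligase, fell from 137 ± 8.89 to 86.1 ± 5.36 CPM (n = 3, SD; log2 fold change -0.67, edgeR adjusted p = 0.00162). Elob, its adaptor, was not called (0.30, adjusted p = 0.0862) but was with the replicate number as a block (0.31, adjusted p = 0.0421), with library size as the sole scaling (0.39, adjusted p = 0.0288) and without control replicate 2 (0.41, adjusted p = 0.0216); without control replicate 3 it was 0.16. The chaperone gene Hsp90ab1, whose product holds HIF-1 alpha in a stable fold, fell from 4162 ± 531 to 2194 ± 399 CPM (-0.92, adjusted p = 0.00336). Hsp90aa1 (-0.55, adjusted p = 0.0255) and the replication helicase gene Mcm7 (-1.30, adjusted p = 0.0025) were also lower, although 47.5% and 23.3% of their stretches occur in other genes, and Hsp90aa1 lost its call without control replicate 1, control replicate 2, KO replicate 2 or KO replicate 3. Siah2, a ligase that degrades PHD proteins and that was named after its value was seen, fell by 1.42 (adjusted p = 0.00152). Os9 rose from 86.4 ± 9.60 to 212 ± 50.7 CPM (1.29, adjusted p = 0.000824), and Siah1a was called higher (0.44, adjusted p = 0.0346) with 23.6% of its stretches shared and the call lost in 6 of 15 settings, which were no filter and the omission of any single library except KO replicate 3. P4htm, a membrane-bound prolyl hydroxylase that can act on HIF, was not called (-0.56, adjusted p = 0.118).

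Collagen modification genes, apart from P4ha1 and P4ha2, gave 2 calls higher and 3 lower among 10 tested of 13, with a median of -0.48. P4hb, the disulfide isomerase that forms the other subunit of the collagen prolyl 4-hydroxylase, fell from 879 ± 63.4 to 448.5 ± 18.2 CPM (n = 3, SD; log2 fold change -0.97, edgeR adjusted p = 0.00053). Colgalt1 (-0.54, adjusted p = 0.0108) and Crtap (-0.51, adjusted p = 0.0123) fell as well, the latter call being lost without KO replicate 2 (adjusted p = 0.0639), where the list gave 3 calls in all. The lysyl hydroxylase gene Plod1 rose from 6.99 ± 0.694 to 21.7 ± 4.92 CPM (1.64, adjusted p = 0.00049). Ppib was called higher (0.39, adjusted p = 0.0271), has 30.8% of its stretches in common with other transcripts, and lost the call with replicates 1 and 2 only and without control replicate 1, control replicate 3, KO replicate 2 or KO replicate 3. P3h1, P3h3, P3h4, Plod2 and Plod3, named after their values were seen, were not called. The third catalytic subunit gene, P4ha3, was too low to test, at 0.0904 and 0.243 CPM. Of 10 collagen chain genes 4 were tested and 1 was called: Col5a1 fell from 2.87 ± 0.430 to 0.172 ± 0.0644 CPM (-3.98, adjusted p = 0.000248). Every collagen chain of the list thus averaged below 3 CPM in either group. This list gave 3 calls without a filter and 2 when either control replicate 1 or control replicate 2 was omitted.

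The last list held 25 other oxygenases that use iron and 2-oxoglutarate, all tested. None was called higher and 7 were called lower, 28% against the background of 46.1%, with a median of -0.11. Jmjd6 fell from 100.5 ± 18.2 to 39.8 ± 4.52 CPM (n = 3, SD; log2 fold change -1.34, edgeR adjusted p = 0.000468). The RNA demethylase gene Alkbh5 fell by 0.42 (adjusted p = 0.011) and the histone demethylase gene Kdm2b by 0.41 (adjusted p = 0.0256). Alkbh5 lost its call without KO replicate 2 (adjusted p = 0.0577), and Kdm2b lost it with library size as the sole scaling and without control replicate 1 or 2 or KO replicate 1 or 2. Kdm3a, a histone demethylase known as a HIF target, held 104 ± 6.82 CPM in control and 99.5 ± 10.5 in KO and was not called (-0.068, adjusted p = 0.658), with a direction that flipped when library size was the sole scaling (0.019).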

How the data were processed

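RNA sequencing of 3 control and 3 KO Th17 libraries was analysed from 1 table, in which the authors deposited whole-number read counts per gene symbol. The submitters' processing notes name STAR, featureCounts and DESeq2 and the build mm10; versions, annotation and strand setting are not given in the sources used here. There were 0 columns of values without a sample and 0 rows without a gene name.

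Groups and replicate numbers came from sample titles. Counts were scaled with TMM factors and filtered with filterByExpr by group. They were tested with edgeR's quasi-likelihood test (edgeR 4.0.16, R 4.3.3), KO against control over all 14268 genes, with Benjamini-Hochberg adjustment and a prior count of 0.125. The SE is the size of the log2 fold change divided by the square root of F. The fit was tested on simulated data. Lengths, positions and shared 50-base stretches came from GENCODE M21 (GRCm38, the assembly behind mm10), promoters from RefSeq.

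The members and lists were chosen with earlier results of these data known. Besides the members and Rtf1, the text names the 3 called genes with the highest mean CPM per list and direction, 10 genes fixed by name, and the 3 genes closest to Hif1a. Equal replicate numbers gave correlations of deviations of 0.27, 0.13 and 0.379 across genes, all above 0.1, and were taken to pair libraries, although the unequal pair of control 2 and KO 1 reached 0.204. What a number stands for is not given in the labels. Every call and SE comes from the fit without the replicate block, which is an alternative. Alternatives were other scalings, filters, DESeq2 1.42.0, a prior count of 2, the replicate block, and leaving out libraries.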

Additional observations from a re-analysis of the deposited data

How the results depend on the processing

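Under the 15 alternative settings, all members kept their direction. The members called, a description only since the contrast was known when they were chosen, numbered 7 as reported, 7 with the replicate block, 9 with library size as the sole scaling and 6 without a filter. Leaving out 1 library gave 6 to 7 members and 4460 to 7050 of all genes, and the replicate block gave 7628 of all genes against 6574 without it. Among the members, Rtf1 and the list genes named by rule, the block changed no call except that of Elob. Genes named after their values were seen, cell type markers and the genes closest to Hif1a were not followed singly across settings. The collagen chain list gave 1 call as reported, 3 without a filter on low counts, where more genes were tested, and 1 to 2 when 1 library was left out. The collagen modification list then gave 3 to 5 calls. Kdm3a reversed with library size as the sole scaling, to 0.0191. The share of promoter windows with a match was 29.3% in the shorter window of 100 bases before to 50 after the start, which holds fewer bases, and the share in windows rich in CpG was added after seeing the data. Depth limits the size of the P4ha2 and Epas1 differences, which rest on as few as 31 and 29 reads in a library.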
